A study of Mus musculus with 6 samples.

Results

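Heat shock proteins and DnaJ chaperones were followed in mouse peritoneum during a model of encapsulating peritoneal sclerosis (EPS), in which fibrous tissue wraps the bowel. Members were the symbols of the count table that begin with Hspa, Hspb, Hspd, Hspe, Hsph or Hsp90, together with the numbered Dnaja, Dnajb and Dnajc genes. The rule found 68 of the 14943 symbols, and 66 of them had enough counts to be tested. Wild-type male C57BL/6J mice aged 8 weeks were injected into the abdomen. In the EPS group (3 libraries) they received peritoneal dialysis solution (4.25%, 100 mL/kg) and SHS, an agent the labels do not spell out (0.3 mL), each day, and lipopolysaccharide, a bacterial endotoxin (4 mg/kg), each week. In the control group (3 libraries) saline was injected at an equal volume, and peritoneum was taken from both groups in week 3. EPS mice received all agents together, so the part of each agent cannot be told apart. The labels do not say whether the libraries of a group come from separate mice, so p-values measure only the spread between these libraries.

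Chaperones bind unfolded or damaged proteins and help them fold, move between compartments or reach the proteasome. HSP70 proteins bind and release their clients in a cycle driven by ATP. DnaJ proteins deliver clients and trigger the ATP step, and exchange factors such as the HSP110 proteins reset it. HSP90 acts on clients that are partly folded, and small heat shock proteins hold unfolded proteins without using ATP. The cytosol, the endoplasmic reticulum and the mitochondria each have their own set. In the cytosol many members are induced by heat shock factor, and in the endoplasmic reticulum by the unfolded protein response.

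Library totals lay between 15419232 and 17684229 counts. Levels are given in CPM, which is counts scaled to a common library size (per 1000000) after TMM normalization, and a value such as 639 ± 40.6 CPM gives the mean and SD of the 3 libraries in a group. Controls 1 and 2 were the closest pair. Chi-square between their counts averaged 4.41 a gene, where sampling noise alone gives about 1, and 15.9 or more in the other pairs within a group. EPS 1 stood apart from EPS 2 and EPS 3 (averages of 412 and 406, against 48.1 between those libraries). The summed level of 13 exocrine pancreas genes was 185257 CPM in EPS 1, 199 and 611 CPM in EPS 2 and EPS 3, and 389.6 to 4467 CPM in controls. All 6 mesothelial markers, which define the lining cells of the peritoneum, were detected, at 169 ± 39.3 CPM in sum in controls and 138 ± 86.6 CPM in EPS. The summed level of 8 adipocyte markers was 21206 ± 694 CPM in controls and 1809 ± 344 CPM in EPS, and that of 6 macrophage markers 639 ± 40.6 and 3553 ± 427 CPM. These are bulk tissue libraries, in which fewer cells of a type and less RNA per cell cannot be told apart.

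Calls differed in direction between compartments, which was not itself tested. Of the small heat shock proteins 5 of 6 fell, and of the mitochondrial chaperones 8 of 10. In the endoplasmic reticulum 3 of 14 rose (Hspa5, Hsp90b1 and Dnajb11) and 3 fell, and of the most abundant cytosolic genes Hspa8 rose modestly and Hsp90ab1 was not called. Of the 66 members tested, 12 rose and 27 fell (edgeR quasi-likelihood test, Benjamini-Hochberg adjusted p under 0.05), and 7 and 17 of these by an estimated change of over 2-fold. The share called, 59.1%, lay beside 59.6% of all 13980 genes tested, so the number of calls among chaperones was that of the transcriptome. Of all genes tested, 29.2% rose and 30.4% fell. All 3 EPS libraries lay above all 3 controls in 33.1% of all genes tested, and below them in 35.4%. The median log2 fold change of the members was -0.29, against -0.02 for all genes tested. With libraries scaled by their totals alone, the median of all genes moved up by 0.42 on the log2 scale and that of the members to 0.12, with 21 members higher and 17 lower. Directions below are therefore relative to the TMM scaling. In the heatmap by library, 33 of the 66 members were highest among the EPS libraries in EPS 1, 19 in EPS 2 and 14 in EPS 3. The members varied more within EPS than within controls, with a median coefficient of variation of 17.2% against 6.44%. Neither these counts nor this variation was computed over all genes. The chi-square averages above, over all genes with at least 20 counts in a pair, were also larger within EPS. The spread is therefore not shown to be particular to chaperones.

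**Figure D1:**
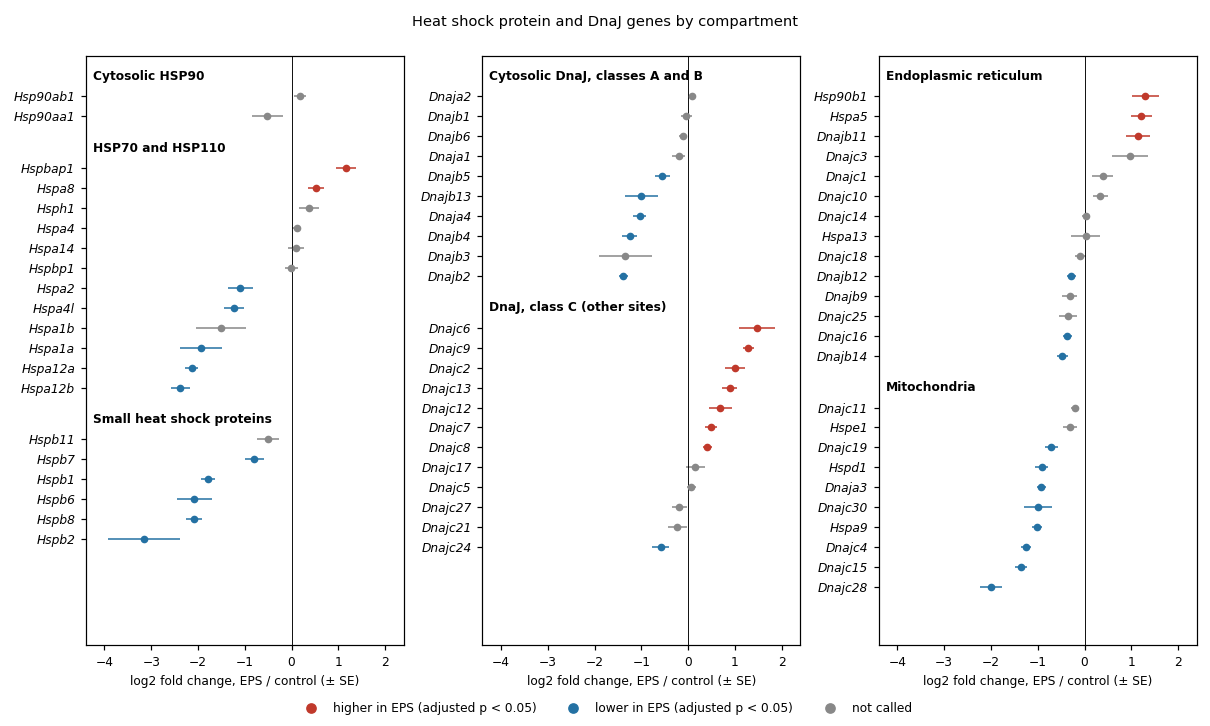
Log2 fold change of EPS over control (x axis) for the 66 tested members, grouped by compartment, with 3 libraries per group. Bars show the standard error derived from the test statistic, and colour shows the call at an adjusted p under 0.05. The tested mitochondrial and small heat shock genes all lie left of 0 (with library totals alone, Hspe1 and Dnajc11 do not), while endoplasmic reticulum genes spread from -0.47 for Dnajb14 to 1.30 for Hsp90b1.

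**Figure D2:**
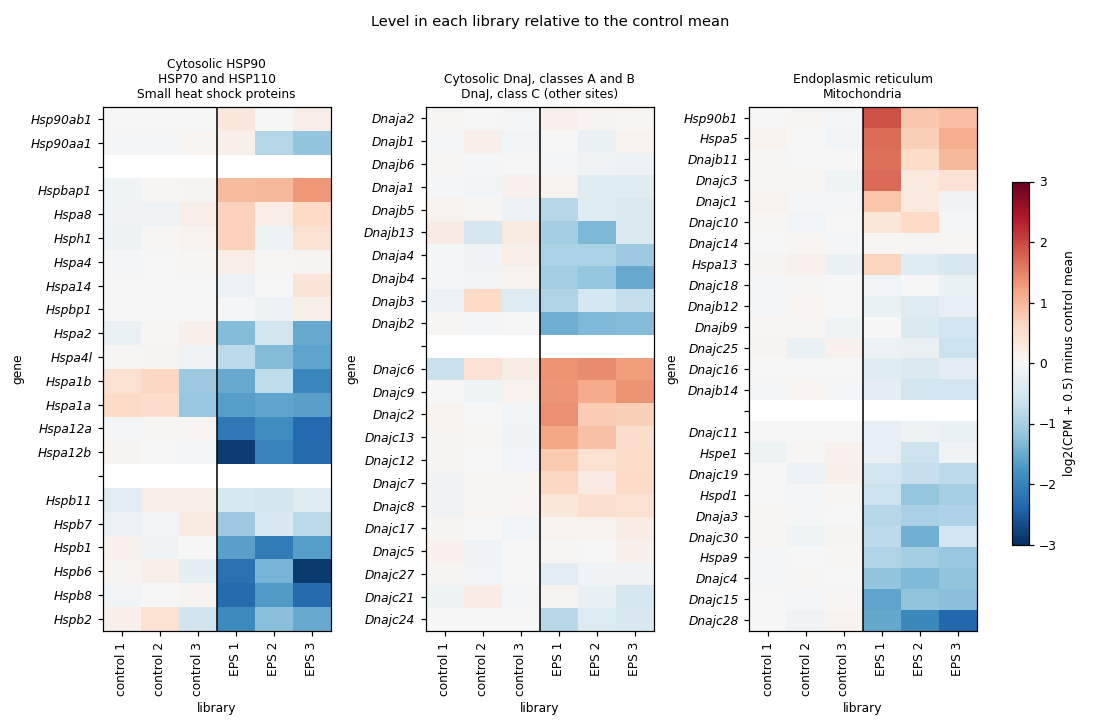
Level of each tested member in each of the 6 libraries, as log2(CPM + 0.5) minus the mean of the 3 controls, with red for higher and blue for lower. Hspa1a and Hspa1b are lower in control 3 than in controls 1 and 2, and Hspa5, Hsp90b1, Dnajb11 and Dnajc3 are highest in EPS 1.

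The most abundant members were cytosolic. Per exon length, Hsp90ab1, the constitutive cytosolic HSP90, ranked first in both groups, at 585 ± 5.97 RPKM in controls and 661 ± 74.0 RPKM in EPS (CPM divided by the exon length in kilobases). Hspa8, the constitutive HSP70 that also strips clathrin from vesicles, ranked second, at 305 ± 37.6 and 436 ± 76.2 RPKM. Together they made up 41.5% of the summed CPM of the 68 members in controls and 50.2% in EPS. Hspb1, Hspd1 and Hspa9 followed in controls, at 167 ± 14.1, 109.97 ± 4.62 and 109 ± 3.09 RPKM, and the last 2 of these differed by less than their spread.

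Neither cytosolic HSP90 gene was called. Hsp90ab1 (chromosome 17, 45567775 to 45573271) stood at 1743, 1774 and 1743 CPM in controls 1 to 3 and at 2184, 1744 and 2017 CPM in EPS 1 to 3. EPS 2 lay within the range of the controls and the other EPS libraries above it, with a log2 fold change of 0.18 ± 0.13 (SE; edgeR adjusted p = 0.282). With library totals alone it was called higher (0.59, adjusted p = 0.0424). Hsp90aa1, the stress-inducible form (chromosome 12, 110690605 to 110702728), stood at 102, 102 and 109.7 CPM in controls and at 116, 57.7 and 46.1 CPM in EPS. EPS 1 was above the controls, and EPS 2 and EPS 3 were far below them. The log2 fold change was -0.52 ± 0.33 (adjusted p = 0.212), and without EPS 1 the gene was called lower (-0.94, adjusted p = 0.000206).

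Among the 12 tested genes of HSP70, HSP110 and associated proteins, 2 rose (Hspa8 and Hspbap1) and 5 fell (4 and 4 with library totals). The median change was -0.55 on the log2 scale. Hspa8 (chromosome 9, 40800984 to 40810087) rose from 1222, 1218 and 1500.3 CPM in controls to 2127, 1504 and 1991 CPM in EPS. The groups did not overlap, although control 3 and EPS 2 lay side by side. The log2 fold change was 0.51 ± 0.17 (adjusted p = 0.0321), and the call was lost without control 1 (adjusted p = 0.126), without control 2 (0.125) or without EPS 3 (0.0661), and with controls 1 and 2 averaged as 1 sample (0.125). Over all alternatives its adjusted p ranged from 0.00217 to 0.126. In the annotation, 8 pseudogenes match Hspa8 at 95% identity or more over at least 200 bases, so its value depends on how reads that match several places were counted. Pseudogene copies of this kind exist for 11 members, among them Hsp90aa1, Hspa9, Hspd1, Hspb1, Dnaja1 and Dnajb6. Hspb1 also matches the coding gene Gm9817 at 99.8% identity over 493 bases.

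Of the inducible HSP70 genes, Hspa1a fell and Hspa1b was not called. Hspa1a and Hspa1b lie next to each other on chromosome 17 (34969190 to 34972156 and 34956436 to 34959238), and their transcripts were 99.2% identical over 2201 bases, so reads may be split between them and each single value is uncertain. In addition, 19.01% of the exon bases of Hspa1a overlap Gm20481 on the opposite strand. Hspa1a stood at 20.2, 19.0 and 5.69 CPM in controls and at 3.81, 4.04 and 3.86 CPM in EPS. All EPS libraries were below all controls, and control 3 was closer to EPS than to the other controls. Hspa1a fell by 1.94 on the log2 scale (± 0.45, adjusted p = 0.00728) and stayed called under all 14 alternatives, with an adjusted p of at most 0.0338. Hspa1b stood at 106, 118 and 35.7 CPM in controls and at 26.7, 44.8 and 19.3 CPM in EPS. Here control 3 lay below EPS 2, and the difference was not called (-1.51 ± 0.54, adjusted p = 0.0559). It was called without control 3 (-1.89, 0.0058), with DESeq2 (0.0244), with limma-voom (0.0437) and with the replicate number as a block (0.00236), while over all alternatives its adjusted p ranged from 0.00236 to 0.172. Hspa2, an HSP70 best known from testis, fell by 1.09 ± 0.26, a call that library totals alone did not give (adjusted p = 0.0832).

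The largest decreases of this group were in atypical members. Hspa12a fell from 81.3, 87.5 and 87.4 CPM in controls to 18.9, 23.0 and 16.4 CPM in EPS, which is 4.39-fold lower (log2 fold change -2.13 ± 0.14, adjusted p = 8.32e-06). Hspa12b, an HSP70 relative known from endothelial cells (chromosome 2, 131127280 to 131146321), fell from 122, 114 and 110.5 CPM to 15.5, 28.2 and 22.7 CPM, 5.19-fold lower (-2.38 ± 0.21, adjusted p = 4.19e-05). Both genes were far below the controls in every EPS library. The summed level of 5 blood endothelial markers, all detected in both groups, was 1708 to 1773 CPM in controls and 712 to 919.6 CPM in EPS, 0.488 times the control level, and its part in the Hspa12b result was not tested.

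The exchange factors and the remaining genes of this group differed among themselves. Hspa4l, an HSP110 protein, fell from 25.6, 26.2 and 23.0 CPM to 14.1, 9.87 and 7.93 CPM (-1.24 ± 0.21, adjusted p = 0.00144). Its relatives Hspa4 (0.11 ± 0.09) and Hsph1 (0.37 ± 0.21) were not called, and Hsph1 was called higher without EPS 2 (0.58, adjusted p = 0.00656). Both also passed with library totals alone (0.52 and 0.76). Hspbap1, which encodes a protein that binds Hspb1, rose from 3.57, 4.03 and 4.23 CPM to 8.04, 8.22 and 10.4 CPM (1.17 ± 0.21, adjusted p = 0.00192). The ribosome-associated Hspa14 (0.09 ± 0.16) and the exchange factor gene Hspbp1, at 19.8 ± 0.210 CPM in controls and 19.8 ± 2.39 CPM in EPS, were not called.

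Small heat shock proteins fell. Of 6 tested, 5 fell and none rose, at a median of -1.94 on the log2 scale (-1.51 with library totals), and in all 6 every EPS library was below every control, as in 35.4% of all genes tested. Hspb1, known as HSP27 in human and a partner of the actin cytoskeleton (chromosome 5, 135887919 to 135889563), fell from 187, 158 and 170.4 CPM in controls to 54.7, 39.7 and 54.3 CPM in EPS (-1.79 ± 0.15, adjusted p = 2.67e-05). Hspb8, a partner of the co-chaperone Bag3 in selective autophagy (chromosome 5, 116408491 to 116422864), fell from 169, 177 and 189 CPM to 35.6, 54.3 and 35.6 CPM (-2.09 ± 0.18, adjusted p = 3.32e-05). For both genes the gap between the groups was several times the spread within either. Hspb6, a small heat shock protein of smooth and striated muscle, fell from 83.3, 89.8 and 65.6 CPM to 16.4, 29.5 and 10.4 CPM (-2.08 ± 0.37, adjusted p = 0.00284). Hspb7, another muscle form, fell from 22.4, 24.1 and 30.7 CPM to 11.6, 18.4 and 14.4 CPM (-0.79 ± 0.20, adjusted p = 0.0101), a call that library totals alone did not give (adjusted p = 0.2999). EPS 2 was the highest EPS library for Hspb6, Hspb7 and Hspb8.

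Hspb2 was rare, with 22, 31 and 11 counts in controls and 0, 6 and 3 in EPS (fitted log2 fold change -3.16 ± 0.78, adjusted p = 0.00828; -3.98 without EPS 2). Its exons share 252 bases with Cryab on the opposite strand, and reads there cannot be assigned, since the protocol describes no strand marking. Hspb11, also known as an intraflagellar transport subunit, was not called (-0.51 ± 0.23, adjusted p = 0.0906), and Hspb3 was not tested, with 1 count in all controls and 5 in EPS, all in EPS 1. Among markers of muscle, the summed level of 8 smooth muscle genes was 5137 to 5635 CPM in controls and 1466, 3747 and 1315 CPM in EPS 1 to 3, highest in EPS 2. All 8 were detected in both groups and 6 of them fell. The summed level of 9 skeletal muscle genes was 53.5 ± 10.6 CPM in controls and 56.7 ± 34.0 CPM in EPS, with 3 of them higher (Mylpf, Tnnt3 and Eno3), 2 lower (Ckm and Myh1) and 4 not called. Most of that sum in EPS 2 was Acta1, at 60.5 CPM there against 0.762 and 2.18 CPM in EPS 1 and EPS 3. The part of muscle content, and of the drop in adipocyte markers, in the small heat shock protein result was not tested.

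**Figure D3:**
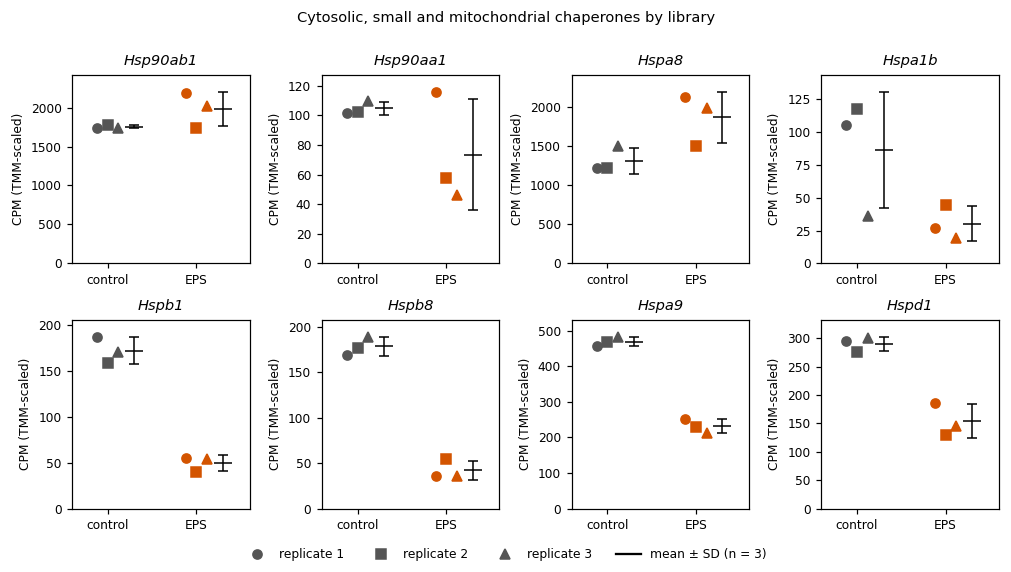
CPM on TMM-scaled library sizes (y axis, from 0) of 8 cytosolic, small and mitochondrial chaperone genes in the 3 control (grey) and 3 EPS (orange) libraries, with a symbol for each replicate number and the mean ± SD at the side. Hspb1, Hspb8, Hspa9 and Hspd1 do not overlap between groups, and Hsp90aa1 spreads from 46.1 to 116 CPM within EPS.

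DnaJ proteins of classes A and B in the cytosol and nucleus either fell or were not called. Of 10 tested, 5 fell and none rose (median log2 fold change -0.78; with library totals 3 fell and 1 rose, at -0.33). Dnajb2, which sorts clients to the proteasome (chromosome 1, 75236406 to 75245692), fell from 65.9, 61.3 and 64.7 CPM to 22.7, 25.04 and 25.5 CPM (-1.39 ± 0.10, adjusted p = 1.26e-05). Dnajb4, a partner of inducible HSP70, fell from 38.9, 37.5 and 43.2 CPM to 19.1, 17.6 and 13.6 CPM (-1.25 ± 0.16, adjusted p = 0.000244). Neither gene had an EPS library near the controls. Dnaja4 fell from 22.8, 22.2 and 26.8 CPM to 12.2, 12.03 and 10.9 CPM (-1.03 ± 0.14, adjusted p = 0.000394), although 44.1% of its exon bases overlap Wdr61 on the opposite strand. Dnajb5 (41.6, 40.3 and 34.1 CPM against 21.2, 29.7 and 28.4) and Dnajb13, a component of motile cilia (8.50, 4.82 and 8.60 CPM against 3.26, 2.49 and 5.15), fell by 0.55 ± 0.16 and 1.00 ± 0.35. Their adjusted p of 0.0173 and 0.0384 did not hold. The call of Dnajb5 was lost without control 1 (0.073), without control 2 (0.0657), with controls 1 and 2 averaged (0.0694) and with library totals (0.752). The call of Dnajb13 was lost without control 1 (0.124), control 3 (0.123), EPS 1 (0.0973) or EPS 2 (0.0991), and with RLE factors (0.0511), controls 1 and 2 averaged (0.0512) and library totals (0.218). The groups overlapped for Dnajb13.

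The co-chaperones that serve Hspa8 most broadly were not called. Dnaja1, the most abundant of this group by CPM, stood at 121, 118 and 136 CPM in controls and at 133, 96.7 and 96.4 CPM in EPS (-0.20 ± 0.15, adjusted p = 0.262), with EPS 1 among the controls and the other EPS libraries below them. It was called lower without EPS 1 (-0.30, adjusted p = 0.0404). Dnaja2 (0.09 ± 0.09) was called higher only with library totals (0.51, adjusted p = 0.0314). Dnajb1, the classical heat-inducible partner of HSP70, was at 61.6 ± 5.47 CPM in controls and 60.2 ± 6.07 CPM in EPS. Dnajb6 (-0.11 ± 0.09), which suppresses protein aggregation, and the rare Dnajb3 (-1.34 ± 0.57, adjusted p = 0.073) were not called.

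In class C DnaJ proteins the J domain is joined to other functions. Outside the endoplasmic reticulum and mitochondria 12 were tested, of which 7 rose and 1 fell (median log2 fold change 0.45). Dnajc9, a histone chaperone (chromosome 14, 20384638 to 20388910), rose from 19.1, 17.2 and 20.2 CPM to 48.3, 41.5 and 48.8 CPM (1.29 ± 0.12, adjusted p = 5.82e-05), with EPS libraries more than 2-fold above controls. The 6 cell cycle markers summed to 9.97 ± 0.912 CPM in controls and 198 ± 20.2 CPM in EPS, and their part in the Dnajc9 result was not tested. Dnajc13, which works on endosomes, rose from 43.5, 41.9 and 38.4 CPM to 93.3, 75.7 and 59.7 CPM (0.89 ± 0.16, adjusted p = 0.00186). Dnajc2, a ribosome-bound chaperone known as zuotin, rose from 9.57, 8.79 and 8.40 CPM to 23.9, 15.4 and 14.9 CPM (1.01 ± 0.21, adjusted p = 0.00392). For these genes every EPS library was above every control, as in 33.1% of all genes tested. EPS 1 was the highest library for Dnajc13 and Dnajc2.

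Smaller increases were seen for Dnajc8, a spliceosome-associated protein, from 73.4, 82.7 and 81.3 CPM to 97.9, 109.6 and 109 CPM (0.41 ± 0.10, adjusted p = 0.00738). Dnajc7, which binds both HSP70 and HSP90, rose from 51.3, 56.4 and 57.8 CPM to 84.7, 65.5 and 82.5 CPM (0.49 ± 0.12, adjusted p = 0.009). Dnajc6, the neuronal auxilin that uncoats clathrin vesicles, rose from 12, 37 and 31 counts to 73, 113 and 94 counts (1.48 ± 0.39, adjusted p = 0.0109). Dnajc12 (0.69 ± 0.25, adjusted p = 0.0439) was called higher and Dnajc24, needed to make diphthamide, lower (-0.58 ± 0.19, adjusted p = 0.0258). Neither call held without control 1 (adjusted p = 0.0941 and 0.0771), control 2 (0.113 and 0.0778), control 3 (0.121 and 0.0697) or EPS 1 (0.0796 and 0.092), or with controls 1 and 2 averaged (0.0874 and 0.0721). Dnajc12 was also lost without EPS 3 (0.0645), without a filter on low counts (0.0509) and with the replicate block (0.0789), and Dnajc24 with library totals (0.691). Dnajc5, the cysteine string protein of secretory vesicles and the most abundant of this group by CPM, stood at 159, 135 and 144 CPM in controls and at 150.3, 147 and 162 CPM in EPS (0.07 ± 0.10). Dnajc5 was called higher only with library totals (0.50, adjusted p = 0.0476). Dnajc17 (0.15 ± 0.20), Dnajc27 (-0.19 ± 0.16) and Dnajc21 (-0.23 ± 0.20) were not called. Dnajc22 was not tested, with 2 counts in all controls and 22, 8 and 7 in EPS.

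In the endoplasmic reticulum 14 members were tested, of which 3 rose, 3 fell and 8 were not called. The share called, 42.9%, was below the 59.6% of all genes, and the changes lay at a median of 0.03 on the log2 scale (7 rose and none fell with library totals). Hspa5 is the lumenal HSP70 known as BiP, which binds unfolded proteins (chromosome 2, 34771970 to 34777547). It rose from 283, 261 and 252 CPM in controls to 846, 436 and 568 CPM in EPS (1.22 ± 0.23, adjusted p = 0.00253). Hsp90b1, the lumenal HSP90 known as GRP94 (chromosome 10, 86690209 to 86705509), rose from 77.9, 78.7 and 75.1 CPM to 291, 135 and 144 CPM (1.30 ± 0.29, adjusted p = 0.00687). Dnajb11, a soluble partner of BiP (chromosome 16, 22857845 to 22879634), rose from 75.1, 73.3 and 72.7 CPM to 232, 108 and 146 CPM (1.13 ± 0.26, adjusted p = 0.00687). In all 3 every EPS library was above every control, as in 33.1% of all genes tested, and EPS 1 was the highest library. Without EPS 1 these genes were called at 0.99, 0.93 and 0.86 on the log2 scale. Hspa5 reached 146 ± 49.5 RPKM in EPS against 62.8 ± 3.84 RPKM in controls.

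Dnajc3, a lumenal BiP partner also known as P58IPK, stood at 95.5, 94.8 and 84.1 CPM in controls and at 299, 112 and 124 CPM in EPS. Every EPS library was above every control, but the spread within EPS was wide and the gene was not called (0.96 ± 0.38, adjusted p = 0.0705). Without EPS 1 it was called at less than the main estimate (0.44, adjusted p = 0.0106), as it was without EPS 2 (1.21, 0.031), with DESeq2 (0.00314) and with library totals (0.000944). Dnajb9, Dnajc10 and Dnajc1 were not called either. Dnajb9, a BiP partner that is a classical target of the unfolded protein response, stood at 88.1, 87.7 and 77.1 CPM in controls and at 84.8, 62.4 and 56.3 CPM in EPS (-0.32 ± 0.16, adjusted p = 0.121), and without EPS 1 it was called lower (-0.44, adjusted p = 0.00934). Dnajc10, a disulfide reductase, was at 56.2 ± 2.45 and 71.0 ± 15.5 CPM (0.34 ± 0.16, adjusted p = 0.0986) and was called higher without EPS 3 (0.50, 0.00471), with DESeq2 (0.0488) and with library totals (0.00874). Dnajc1 (0.39 ± 0.23) was called higher without EPS 3 (0.59, 0.0203) and with library totals (0.00437).

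Dnajb14, a tail-anchored membrane protein, fell from 40.1, 42.8 and 39.6 CPM to 33.1, 27.8 and 27.2 CPM (-0.47 ± 0.12, adjusted p = 0.00847). Dnajc16 fell from 47.8, 47.9 and 48.8 CPM to 37.1, 35.5 and 39.7 CPM (-0.36 ± 0.09, adjusted p = 0.01). Dnajb12, the relative of Dnajb14, fell from 56.5, 61.6 and 59.2 CPM to 51.3, 45.3 and 49.5 CPM (-0.28 ± 0.10, adjusted p = 0.034). These decreases were small against the TMM scale: with library totals they stood at -0.07, 0.06 and 0.14 and none was called. Dnajc16 was also lost without EPS 1 (0.0643). Dnajb12 was lost under 10 other alternatives, among them each of the 3 without a control (0.0647 to 0.123), those without EPS 1 (0.0935) and EPS 2 (0.0911), controls 1 and 2 averaged (0.0811) and the replicate block (0.0678). Dnajc14 (0.04 ± 0.09), Dnajc18 (-0.09 ± 0.12), Dnajc25 (-0.35 ± 0.19) and the microsomal HSP70 Hspa13 (0.02 ± 0.31) were not called. With library totals alone Dnajc14 was called higher (0.46, adjusted p = 0.0484).

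EPS 1 was the highest EPS library for 11 of the 14 endoplasmic reticulum members, a count not made over all genes. The summed level of these members was 948 to 1018 CPM in controls and 2181, 1239.8 and 1384 CPM in EPS 1 to 3. Exocrine pancreas and plasma cells secrete much protein. None of the 13 pancreas genes was called or at 0 in either group, and their levels, given above, were far higher in EPS 1 than in the rest. The 4 plasma cell markers in the table (Jchain, Mzb1, Tnfrsf17 and Sdc1) summed to 35.3 to 42.7 CPM in controls and 538, 532 and 573 CPM in EPS, and all 4 rose. The part of pancreas and plasma cell content in the endoplasmic reticulum result was not tested.

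**Figure D4:**
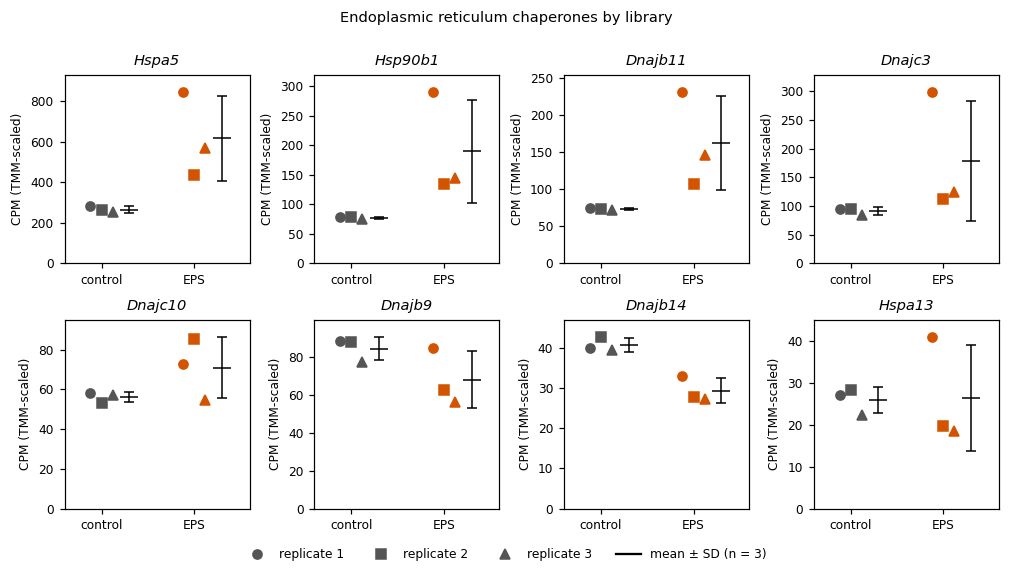
CPM on TMM-scaled library sizes (y axis, from 0) of 8 endoplasmic reticulum chaperone genes in the 3 control (grey) and 3 EPS (orange) libraries, with a symbol for each replicate number and the mean ± SD at the side. EPS 1 (circle) is highest for Hspa5, Hsp90b1, Dnajb11 and Dnajc3, and Dnajb9 overlaps between groups.

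Promoters were searched, as a description only, for the sequence element of the unfolded protein response. RefSeq windows on GRCm38.p6 from 250 bases before to 50 bases after the start were available for 55 of the 68 members, 12 of them in the endoplasmic reticulum group. The endoplasmic reticulum stress element, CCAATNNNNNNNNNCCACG on either strand, was found for Hspa5, Hsp90b1 and Dnajc3 and no other member, which is 5.45% of the members against 0.137% of the 27025 genes with a window. Dnajb11 and Dnajb9 did not hold these letters in their windows. The stretches below show the matches in capitals, in the direction of the gene, for the genes that hold it. The Hspa5 stretch spans chr2:34772020-34772049 on the plus strand, the Hsp90b1 stretch chr10:86705523-86705666 on the minus strand with 2 matches in opposite directions, and the Dnajc3 stretch chr14:118937817-118937855 on the plus strand.
Hspa5: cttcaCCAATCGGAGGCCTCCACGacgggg
Hsp90b1: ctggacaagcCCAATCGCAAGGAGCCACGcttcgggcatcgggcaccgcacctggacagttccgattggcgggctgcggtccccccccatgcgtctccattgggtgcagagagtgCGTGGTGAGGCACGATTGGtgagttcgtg
Dnajc3: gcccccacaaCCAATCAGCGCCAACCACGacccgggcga
The matches end 47 bases (Hspa5), 194 and 89 bases (Hsp90b1) and 87 bases (Dnajc3) before the RefSeq start. A match in a window is a description of its letters and not of a bound factor.

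Other genes of folding and the unfolded protein response were called more often than the endoplasmic reticulum members (75.9% against 42.9%). That difference was not tested, and the share over all genes was 59.6%. Of these other genes 29 were tested, and 20 rose and 2 fell, where 29.2% and 30.4% of all genes did. Their median was 0.89 on the log2 scale, and their windows held the same element in 7 of 24 cases. P4hb, Xbp1, Eif2ak3 and Ero1b each lost the call without any 1 of the controls (edgeR adjusted p 0.0668 to 0.118). Edem1 lost it without control 3 (0.0621), and Selenos without control 1 (0.0571) or control 3 (0.0522). Sil1, which fell, lost it with library totals (0.459). The uncalled Syvn1, Ero1a, Atf6, Sec63 and Sel1l gained a call under at least 1 alternative. Pdia3, a disulfide isomerase for glycoproteins, rose from 312, 309.9 and 297 CPM to 629, 510.5 and 589 CPM (0.91 ± 0.12, adjusted p = 0.000315). Sdf2l1, a partner of BiP, rose from 6.70 ± 0.375 to 51.5 ± 24.2 CPM (2.94 ± 0.36, adjusted p = 0.000366). Derl3, of the channel that exports misfolded proteins, rose from 1.63 ± 0.267 to 42.9 ± 30.6 CPM (4.71 ± 0.61, adjusted p = 0.000677; 4.05 without EPS 1). Its relative Derl1 fell from 408, 388 and 410.5 CPM to 153, 155 and 192 CPM (-1.27 ± 0.12, adjusted p = 5.63e-05).

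Mitochondrial chaperones fell. Of 10 tested, 8 fell and none rose, at a median of -0.96 on the log2 scale (-0.55 with library totals, where the uncalled Hspe1 and Dnajc11 stood above 0). Hspa9, the matrix HSP70 known as mortalin that pulls proteins through the import channel, fell from 457, 469 and 483 CPM in controls to 251, 229.9 and 212 CPM in EPS (-1.02 ± 0.11, adjusted p = 0.000102). Dnaja3, its J partner Tid1 (chromosome 16, 4639989 to 4707695), fell from 118, 113 and 117 CPM to 64.1, 58.9 and 61.3 CPM (-0.92 ± 0.09, adjusted p = 5.97e-05). For both, the spread within a group was small beside the gap between the groups. Dnajc15 (chromosome 14, 77820681 to 77875125), which sits at the import motor and is also known as MCJ, fell from 78.7, 77.2 and 81.0 CPM to 26.0, 33.7 and 32.6 CPM (-1.36 ± 0.12, adjusted p = 3.63e-05). Dnajc4 fell from 38.3, 40.4 and 39.2 CPM to 16.9, 15.5 and 17.1 CPM (-1.25 ± 0.11, adjusted p = 4.27e-05), and Dnajc28 from 21.4, 19.95 and 23.0 CPM to 7.07, 5.26 and 3.76 CPM (-2.01 ± 0.23, adjusted p = 0.000162). All of these had EPS libraries far below the controls.

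Dnajc19, another subunit of the import motor, fell by 0.71 ± 0.15 (adjusted p = 0.00338), a call not given by library totals (0.239). Dnajc30 fell by 1.00 ± 0.31 (adjusted p = 0.0222), which was lost without control 1 (0.0677), without control 3 (0.0688), with controls 1 and 2 averaged (0.0553) and with library totals (0.161), and 26.3% of its exon bases overlap Bud23 on the opposite strand. Dnajc11, of the outer membrane, was not called (-0.20 ± 0.08, adjusted p = 0.0682) although its EPS libraries lay below its controls. The summed level of the adipocyte markers fell in the same libraries to 0.0853 of the control level, with all 8 markers lower, and its part in the mitochondrial result was not tested.

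Of the chaperonin pair, Hspd1 was called and Hspe1 was not. Hspd1, HSP60, which forms the folding chamber (chromosome 1, 55077835 to 55088243), fell from 295, 277 and 299.8 CPM to 187, 129 and 146 CPM (-0.92 ± 0.15, adjusted p = 0.000881). Hspe1, HSP10, its lid (chromosome 1, 55088132 to 55091307), stood at 78.2, 88.8 and 95.5 CPM in controls and at 73.8, 56.8 and 81.3 CPM in EPS, with overlapping groups (-0.31 ± 0.15, adjusted p = 0.108; called without EPS 3 at -0.43, 0.0346). The genes start head to head and share the promoter, and their exons overlap by 112 bases on opposite strands. A heat shock element of 3 inverted units, GAANNTTCNNGAA or TTCNNGAANNTTC on either strand, was found for Hspd1, Hspe1, Hsph1 and Dnajb6, 7.27% of the members with a window against 0.662% of all genes. Of these 4 genes Hspd1 was called and the others were not. Hspd1 and Hspe1 hold the same bases, so the share counts that element for both. The Hsph1 match begins 16 or 37 bases after the start, depending on the window. The shared element is shown on the Hspd1 strand, at chr1:55088053-55088081 (minus strand), with capitals for a pair of overlapping matches.
Hspd1: gggccTTCCGGAAGGTTCTAGAAcggacc
No match was found in the windows of Hspa1a, Hspa1b or Hspb1, which says only that these letters are not in them.

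Other genes of the mitochondrial set fell as well, 9 of 12, and none rose (7 fell and 3 rose with library totals). The share called, 75%, lay beside 59.6% of all genes tested, of which 29.2% rose and 30.4% fell. Trap1, the mitochondrial HSP90, fell from 247, 235 and 239 CPM to 80.6, 82.7 and 94.0 CPM (-1.49 ± 0.10, adjusted p = 1.03e-05). The disaggregase gene Clpb (-1.31 ± 0.11), the protease gene Lonp1 (-1.16 ± 0.10) and Grpel1, the exchange factor of mortalin (-1.08 ± 0.13), fell by similar amounts. Of 23 heat shock factors and cytosolic co-chaperones, 1 rose and 9 fell (6 and 3 with library totals). Their share called, 43.5%, was below that of all genes. Cryab, a small heat shock protein outside the naming rule, fell from 270.2, 278 and 249.1 CPM to 28.8, 29.1 and 31.5 CPM (-3.16 ± 0.10, adjusted p = 1.66e-06). Bag1 (-1.40 ± 0.10) and Bag4 (-1.55 ± 0.14), which release clients from HSP70, also fell. So did Hsbp1 (-0.82 ± 0.09), a binding partner of heat shock factor, a call that library totals alone did not give (-0.41, adjusted p = 0.0646). The main heat shock factor gene Hsf1, chosen for mention with its values known, stood at 43.2 ± 1.43 and 45.8 ± 3.37 CPM in controls and EPS (0.08 ± 0.10, adjusted p = 0.487). With library totals alone Hsf1 was called higher (0.51, adjusted p = 0.0331). TRiC is the cytosolic chaperonin for actin and tubulin. Of its 8 subunits 3 rose (Cct2, Cct8 and Cct5, by 0.37 to 0.40 on the log2 scale) and none fell. The share called, 37.5%, was also below that of all genes, and no subunit was called without control 2.

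Ratios of counts within a library do not depend on how libraries are scaled, and 4 were compared (exact two-sided permutation test over 20 splits, smallest possible p 0.1, Benjamini-Hochberg over the 4). Such a design cannot reach 0.05. The log2 ratio of inducible Hsp90aa1 to constitutive Hsp90ab1 was -4.10, -4.11 and -3.99 in controls and -4.24, -4.92 and -5.45 in EPS, lower in all 3 EPS libraries (difference -0.80, exact p = 0.1, adjusted 0.133). The ratio of Hspa1a plus Hspa1b to Hspa8 was -3.28, -3.15 and -5.18 in controls and -6.12, -4.95 and -6.42 in EPS, with EPS 2 above control 3 (difference -1.96, exact p = 0.2, adjusted 0.2). The ratio of Hspa5 to Hspa8, lumenal to cytosolic HSP70, was -2.11, -2.22 and -2.58 in controls and -1.33, -1.79 and -1.81 in EPS, higher in all EPS libraries (difference 0.66, exact p = 0.1, adjusted 0.133). The ratio of Hspd1 to Hspe1 was 1.92, 1.64 and 1.65 in controls and 1.34, 1.19 and 0.84 in EPS, lower in all EPS libraries (difference -0.61, exact p = 0.1, adjusted 0.133).

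**Figure D5:**
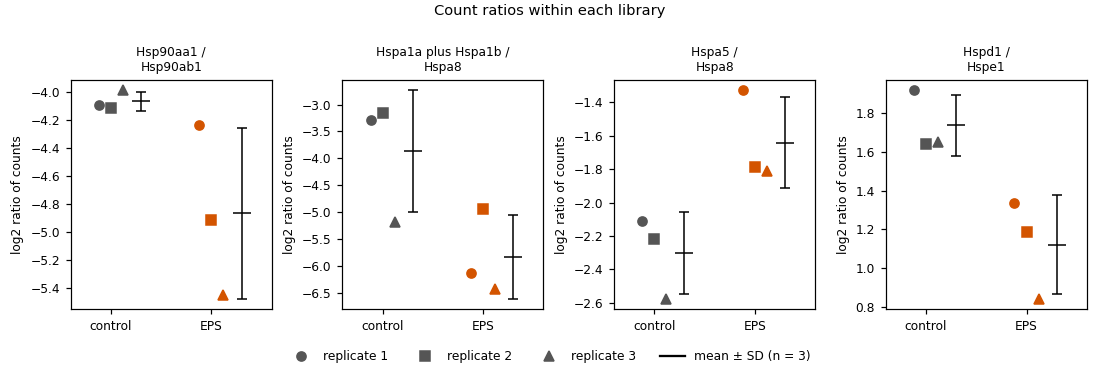
Log2 ratio of the counts of a gene pair within each library (y axis) in the 3 control (grey) and 3 EPS (orange) libraries, with a symbol for each replicate number and the mean ± SD at the side. Hsp90aa1 to Hsp90ab1 and Hspd1 to Hspe1 are lower in every EPS library, Hspa5 to Hspa8 is higher, and Hspa1a plus Hspa1b to Hspa8 overlaps.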

How the data were processed

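RNA sequencing of mouse peritoneum gave 6 libraries, 3 per group. Per the labels' protocols, polyadenylated RNA was selected and no strand-marking step is named. The deposited values are raw counts per gene symbol, per the file headers and their whole-number values, and the build was mm10 per the submitters' processing notes. The sources used here name no aligner, counting tool or annotation. From these counts genes were kept by filterByExpr (13980 of 14943), scaled by TMM and compared with edgeR (4.0.16, R 4.3.3), using the quasi-likelihood test, robust dispersion estimates and Benjamini-Hochberg adjustment over all genes tested. The test was also run on simulated counts with the same dispersion for every gene and both groups. In these libraries EPS varied more than controls, so that run does not show how the test performs on them. Gene coordinates and exon lengths are from GENCODE vM21 (GRCm38), where all 68 members were found, and near copies were sought with blastn 2.17.0. Members were assigned to 7 lists by compartment. In each list, values by library are given for the 5 called members with the smallest adjusted p, or fewer, and for the one of highest mean CPM, and up to 4 called genes are named per list of other pathway genes. Members and lists were chosen with earlier results of these data known. Alternatives were RLE and upper-quartile factors, library totals, no filter, DESeq2 (1.42.0), limma-voom (limma 3.58.1), a replicate block, leaving out each library, and controls 1 and 2 averaged as 1 sample. Ratios were also computed with 0.5 or 5 added to each count. Intervals are not given for single counts, and depth limits the rare members Hspb3 and Dnajc22.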

Additional observations from a re-analysis of the deposited data

How the results depend on the processing

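The results depend most on how libraries are scaled. Library totals alone called 21 members higher and 17 lower, at a median log2 fold change of 0.12. By group this gave 1 higher for cytosolic HSP90, 4 higher (median -0.11) for HSP70 and HSP110, a median of -1.51 for small heat shock proteins, 1 higher and 3 lower (-0.33) for DnaJ classes A and B, 0 lower (0.88) for class C, 7 higher and 0 lower (0.42) for the endoplasmic reticulum, and a median of -0.55 for mitochondria. Among other pathway genes it called 6 higher and 3 lower heat shock factors and co-chaperones, 6 higher TRiC subunits, 1 lower endoplasmic reticulum gene and 3 higher mitochondrial genes, and it reversed Dnajb12 (0.14), Dnajc16 (0.0607) and Bag5 (0.14). It also put 72.2% of all calls on the higher side, against 49.1% with TMM. With controls 1 and 2 averaged, 1 gene of the HSP70 and HSP110 list was higher, which was Hspbap1 and not an HSP70. In that setting 0 heat shock factors and co-chaperones and 1 TRiC subunit were higher, and 3 class A and B and 0 class C genes were lower. DESeq2 called 5 endoplasmic reticulum members and 3 heat shock factors and co-chaperones higher, and RLE and upper-quartile factors called 3 of the latter each.

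Leaving out each library in turn gave 10 to 14 members higher and 22 to 28 lower. By group, cytosolic HSP90 had 0 to 1 lower (1 without EPS 1), HSP70 and HSP110 1 to 3 higher, DnaJ classes A and B 3 to 5 lower, class C 0 to 1 lower and the endoplasmic reticulum 3 to 5 higher. For other pathway genes the counts higher were 0 to 5 for heat shock factors and co-chaperones, 0 to 3 for TRiC and 0 to 1 for mitochondrial genes. Fkbp5, which binds HSP90, ranged from -0.35 to 0.50 on the log2 scale, the last without control 3. The cause of these changes was not tested. Of the 39 called members, 27 kept their call under all 14 alternatives. The 4 ratios kept their direction under every alternative run, pairing by replicate number included.

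Deviations from the group means correlated at 0.25, -0.13 and 0.27 between same-numbered libraries, and at -0.36 to 0.23 between the others. Deviations from a mean of 3 libraries constrain each other, so these values cannot show whether the numbers mark pairs. A replicate block gave 11 members higher and 27 lower, and 3 members changed call.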
